A study of Mus musculus with 8 samples.

Results

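Nephron progenitors that had lost Smo were compared with progenitors that expressed SmoM2, an active form of Smo, which are the ends of the intended range of Smo dose in the study. The comparison used 4 of the 8 libraries of the series, and every gene with enough counts to test entered it, which was 13459 of the 24539 genes in the table. The study isolated mesenchymal nephron progenitors from mouse kidneys at E18.5 by FACS and sequenced their polyadenylated RNA, to ask whether Hedgehog signalling maintains these cells. The KO libraries (n = 2) came from embryos with the genotype Smo c/c; Six2GFPcre, in which Cre removes both conditional alleles of Smo. The SmoM2 libraries (n = 2) came from Rosa26 SmoM2/+; Smo +/+; Six2GFPcre embryos, which kept both normal Smo alleles and carried 1 copy of SmoM2 at the Rosa26 locus. All groups carried Six2GFPcre, in which regulatory sequence of Six2 drives a GFP and Cre fusion protein, so deletion or activation was limited to cells that express Six2 and their descendants. The other 4 libraries, Smo c/+; Six2GFPcre (Het, n = 2) and Smo +/+; Six2GFPcre (WT, n = 2), shared the estimate of spread and are given as reference levels. The labels do not say whether the libraries of a group came from separate embryos, litters or pools. By their Y-linked and Xist counts, the 2 SmoM2 libraries differed in sex, and so did the 2 WT libraries. Those pairs were therefore not repeats of the same RNA. For KO and Het, whose libraries shared a sex within each group, these counts cannot tell this, so p-values may measure less than the spread between embryos.

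Hedgehog ligands bind the receptor Ptch1, which otherwise holds Smo inactive, and active Smo lets Gli transcription factors turn on target genes such as Gli1, Ptch1 and Hhip. SmoM2 carries a mutation that makes it signal without a ligand. Nephron progenitors surround the tips of the ureteric bud, keep dividing under the control of Six2 and its partners, and are induced by Wnt signals to form renal vesicles, the epithelial precursors of nephrons. A cell that leaves the progenitor state turns on Wnt4, Fgf8, Pax8 and Lhx1 and then uses Notch signals to pattern the early nephron.

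The listed counts of the KO libraries summed to 4422305 and 4442697, and those of the SmoM2 libraries to 9929956 and 9037109, so a KO library held fewer than 1 count for every 2 of a SmoM2 library. Levels are CPM, counts scaled to a common library size, and a difference is the log2 of the KO level over the SmoM2 level, so that a positive value means higher in KO. The progenitor markers Six2, Cited1, Eya1, Osr1, Wt1, Pax2 and Sall1 were present in all 4 libraries. Both KO libraries and SmoM2 replicate 1 had counts from Y-linked genes and almost none from Xist. SmoM2 replicate 2 had the opposite pattern with 1425 CPM of Xist, so results without SmoM2 replicate 2 are the comparison within 1 sex. Both libraries labelled Het and WT-labelled replicate 2 had that opposite pattern too, with 1371, 1641 and 1986 CPM of Xist. WT-labelled replicate 1 had the pattern of the KO libraries. Stromal collagens differed within the KO group, with Col1a1 at 379.5 and 32.9 CPM in the KO libraries and 148 and 138 CPM in the SmoM2 libraries. In these bulk libraries, fewer cells of a type and less RNA per cell cannot be told apart.

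Smo (GRCm38 chr6:29735503-29761365, plus strand) was at 13.1 and 11.1 CPM in the KO libraries and 605 and 629 CPM in the SmoM2 libraries, with no overlap between groups. Its mean was 12.1 ± 1.39 CPM in KO and 617 ± 17.1 CPM in SmoM2 (SD, n = 2), a log2 difference of -5.67 (SE 0.22; edgeR adjusted p = 1.87e-07). Reads of the SmoM2 transgene and of the endogenous gene fall on the same gene symbol and were not separated. The libraries labelled Het had 14.4 and 23.9 CPM, near the KO level and far under the 363 and 375 CPM of the libraries labelled WT, which goes against a label of 1 normal allele.

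Of the 13459 tested genes, 4372 (32.5%) passed edgeR's quasi-likelihood test at an adjusted p under 0.05. Of these, 2218 (16.5%) were higher and 2154 (16.0%) were lower in KO. The KO and SmoM2 libraries did not overlap for 9035 (67.1%) of all tested genes and for 4371 of the 4372 called genes. A lack of overlap therefore adds nothing to the call of a gene. Scaling by the library totals implied by the deposited RPKM values moved the median of all genes from 0.04 to 0.14, and calls were then 2779 higher and 1645 lower (62.8% higher, against 50.7%). At least a 2-fold difference was found for 1529 genes (11.4%), with 783 (5.82%) higher and 746 (5.54%) lower. Of the called genes, 1141 differed by less than 1.5-fold and 1702 by 1.5-fold to 2-fold, and the median absolute log2 difference of a called gene was 0.79. At least 4-fold differences numbered 213 genes higher and 237 genes lower. The genes called higher made up 18.0% of the summed CPM of KO and 10.4% of that of SmoM2, and the genes called lower made up 18.3% and 28.7%.

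**Figure D1:**
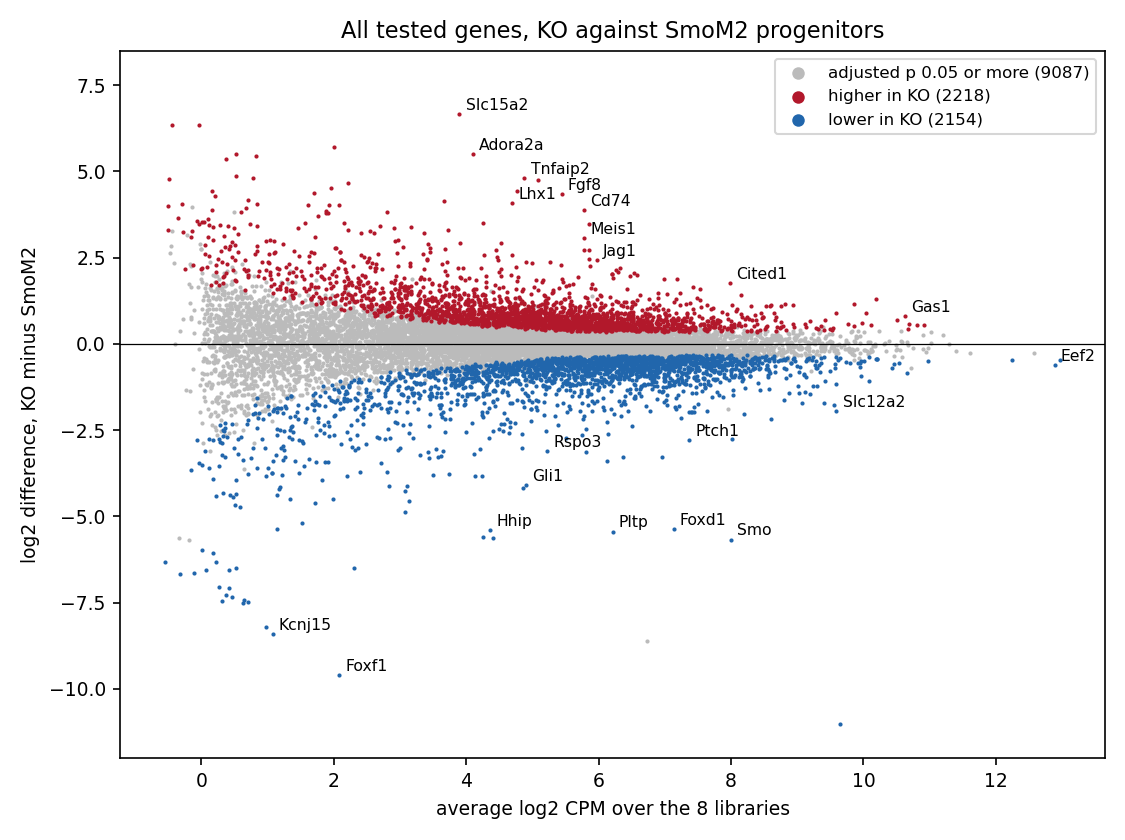
Each point is 1 of the 13459 tested genes, with its average log2 CPM over the 8 libraries on the x axis and its fitted log2 difference, KO minus SmoM2, on the y axis. Red points (2218) were called higher and blue points (2154) lower in KO by edgeR at an adjusted p under 0.05, and grey points were not called. The blue point at the bottom right is Xist, which separates SmoM2 replicate 2 from the other 3 libraries, and fitted values of genes with no counts in KO, such as Foxf1 and Kcnj15, are not bounds.

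The number of calls depended on single libraries. It fell to 2423 without KO replicate 1, to 2642 without SmoM2 replicate 1 and to 2820 without SmoM2 replicate 2. Without KO replicate 2 it was 3511. In what follows a gene is said to keep its call where it was called in the same direction in each of 18 alternative analyses that tested it, 8 of which left out 1 library. Short and long genes differed in opposite directions. Genes were put into 4 groups of equal number by length. In the group of the shortest genes (73 to 1902 bases), 926 were higher and 142 lower in KO, with a median log2 difference of 0.32. Among the longest genes (4566 to 83437 bases), 236 were higher and 1159 lower, with a median of -0.30. The length trend was steepest in KO replicate 1, where the shortest group lay 0.29 above and the longest 0.23 below the mean of the 8 libraries on the log2 scale, and its part in single results was not tested. With the trend of each library over gene length removed before the fit, 1860 genes were called higher and 1634 lower, and 2855 of the original calls were among them. Calls lost in this way are named beside the gene. The counts of gene lists that follow are read against the shares of all tested genes, 16.5% called higher and 16.0% called lower. A list near those shares shows no result of its own in its count of calls. The lists were chosen with earlier results of these data known. A share above those of all tested genes therefore describes the chosen members and is no test of a programme.

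**Figure D2:**
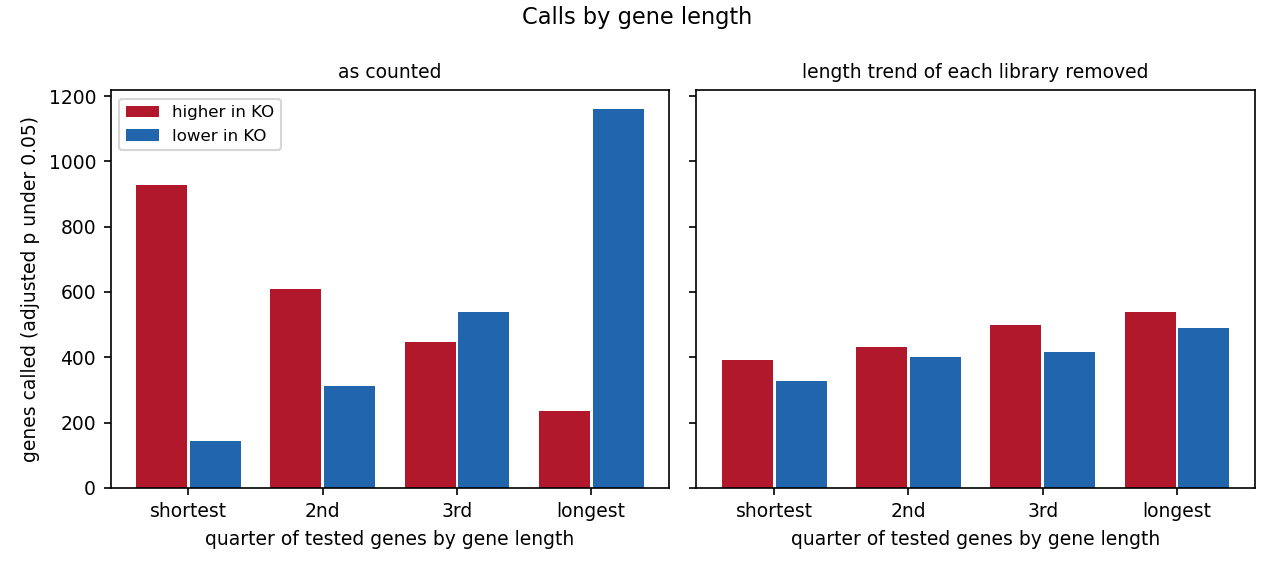
Bars give the number of genes called higher (red) and lower (blue) in KO in each of 4 groups of the tested genes by gene length, from the counts as deposited (left) and with the length trend of each library removed (right). The left panel runs from 926 higher and 142 lower in the shortest group to 236 higher and 1159 lower in the longest, and the right panel from 392 and 327 to 539 and 491.

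Hedgehog target genes had the lowest median difference of the 37 lists of signalling, cell state and cell function genes, with 6 of 7 tested members called lower, where 16.0% of all tested genes were, and none higher. The median log2 difference of the list was -5.40, or -4.08 with members at 0 in KO set to their bound, beside 0.04 over all tested genes. All 6 kept their calls. The promoters of Foxf2, Hhip and Ptch1 are shown first because these members moved together and are the 3 of 7 targets that the RefSeq promoter table (GRCm38.p6) holds. Each line gives the 250 bases before the transcript start used in that table, 5′ to 3′ on the gene's strand, and capitals mark GC boxes, the letters GGGCGG or CCGCCC on the other strand, which bind Sp family factors. The Foxf2 window is chr13:31625566-31625815 (plus strand), the Hhip window is chr8:80058009-80058258 (minus strand) and the Ptch1 window is chr13:63565736-63565985 (minus strand). The Ptch1 window lies inside the gene as GENCODE annotates it (chr13:63508328-63573598), before the start of an inner transcript and not at the outermost start.
Foxf2: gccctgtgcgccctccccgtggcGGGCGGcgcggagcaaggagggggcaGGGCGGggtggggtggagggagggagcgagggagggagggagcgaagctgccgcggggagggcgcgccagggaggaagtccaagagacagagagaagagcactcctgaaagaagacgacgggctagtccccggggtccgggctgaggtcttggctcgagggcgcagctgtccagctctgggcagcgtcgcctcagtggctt
Hhip: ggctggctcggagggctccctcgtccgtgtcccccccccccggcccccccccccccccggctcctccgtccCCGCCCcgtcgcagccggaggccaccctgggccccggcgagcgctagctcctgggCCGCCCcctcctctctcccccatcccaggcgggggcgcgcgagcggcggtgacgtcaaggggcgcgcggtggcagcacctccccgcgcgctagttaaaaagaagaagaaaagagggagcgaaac
Ptch1: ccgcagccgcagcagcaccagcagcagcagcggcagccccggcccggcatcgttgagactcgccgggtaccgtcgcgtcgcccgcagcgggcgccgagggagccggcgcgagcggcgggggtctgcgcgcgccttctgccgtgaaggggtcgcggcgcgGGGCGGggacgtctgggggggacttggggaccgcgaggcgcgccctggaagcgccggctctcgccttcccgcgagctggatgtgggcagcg
The windows of Foxf2 and Hhip held 2 GC boxes each and that of Ptch1 held 1, and a GC box was present in 32.7% of 32851 promoter windows of the same length. The Gli binding letters GACCACCCA, searched as such and as TGGGTGGTC for the other strand, were in none of these 3 windows and in 0.225% of all promoter windows.

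Gli1, the activator that is itself switched on by the pathway, was at 5.98 and 2.83 CPM in KO and 75.9 and 73.5 CPM in SmoM2, which did not overlap (log2 difference -4.08, SE 0.28, edgeR adjusted p = 6.53e-06). Ptch1, the receptor, was at 51.4 and 54.6 CPM in KO and 377 and 355 CPM in SmoM2 (log2 difference -2.79, SE 0.12, edgeR adjusted p = 4.77e-07). It was reduced in KO but was still counted well above the floor there. Hhip, a membrane protein that traps Hedgehog ligands, was at 1.11 and 2.18 CPM in KO and 62.4 and 77.8 CPM in SmoM2 (log2 difference -5.40, SE 0.34, edgeR adjusted p = 4.39e-06). The forkhead factors Foxf1 and Foxf2 are Hedgehog targets in mesenchyme of other organs. No read of Foxf1 was counted in either KO library, against 14.5 and 11.1 CPM in SmoM2, so Foxf1 was at least 19.3-fold lower, computed against a floor of 3 counts per KO library (edgeR adjusted p = 9.86e-05). Foxf2 was also at 0 in both KO libraries and at 1.94 and 1.39 CPM in SmoM2, at least 2.51-fold lower (edgeR adjusted p = 0.00944). Foxl1, the remaining forkhead target, had 9.30 and 6.53 CPM in KO and 7.06 and 7.28 CPM in SmoM2 and did not pass the test (log2 difference 0.14, edgeR adjusted p = 0.776).

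Hhip and Foxf1 separated SmoM2 from all other groups. Hhip was at 3.17 and 5.45 CPM and Foxf1 at 0.746 and 0.871 CPM in the libraries labelled WT, whereas Gli1 in WT, at 33.6 and 28.3 CPM, and Ptch1, at 155 and 168 CPM, lay between KO and SmoM2. The exons of Foxf1, Foxf2 and Hhip are overlapped on the other strand by the annotated genes Gm27530, Gm27516 and Gm27820, and those of Gli1 by Arhgap9 and Gm47200, whose reads could not be told apart in libraries that do not keep the strand. Such an overlap was found for 188 of 674 listed or named genes looked up in GENCODE, and the limit holds for their values too. Among them were Adora1, Ankrd37, App, Axin2, Ctsa, Dll1, Fat1, Fdft1, Fn1, Gas1, Hoxa11, Itga8, Kcnj15, Meis1, Nrarp, Pax8, Ppp1r1b, Shisa3, Sqstm1, Tnfaip2 and Tril.

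Among the 17 tested Hedgehog pathway components, 3 were called higher and 4 lower in KO. Gli2, the main activator of the Gli family, was at 2.88 and 1.74 CPM in KO and 20.04 and 25.8 CPM in SmoM2 (log2 difference -3.30, SE 0.37, edgeR adjusted p = 0.000137). Gli3, which acts mostly as a repressor, was at 51.8 and 81.9 CPM in KO and 69.7 and 100.1 CPM in SmoM2, so the groups overlapped, and it did not pass the test (edgeR adjusted p = 0.233). Co-receptors help ligands bind Ptch1, and a pair of them was higher in KO. Cdon was at 61.6 and 77.1 CPM in KO and 37.1 and 28.2 CPM in SmoM2 (log2 difference 1.08, SE 0.18, edgeR adjusted p = 0.00144), and Gas1 at 1761 and 1769 CPM in KO and 989.98 and 1043 CPM in SmoM2 (log2 difference 0.80, SE 0.13, edgeR adjusted p = 0.00105). Boc, the third co-receptor, did not pass the test (log2 difference 0.12, edgeR adjusted p = 0.583). Sufu and Kif7, which restrain and organise Gli proteins, were lower by a log2 difference of -0.44 and -0.55, and both lost the call with the length trend removed. Sufu also lost its call without KO replicate 1 and Kif7 without KO replicate 2, and both lost it without SmoM2 replicate 1. Disp1, which releases ligands from cells that make them, was called higher (log2 difference 0.60, edgeR adjusted p = 0.0200) but lost the call without KO replicate 1 or either SmoM2 library. The ligand genes Shh, Ihh and Dhh had too few counts to test.

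**Figure D3:**
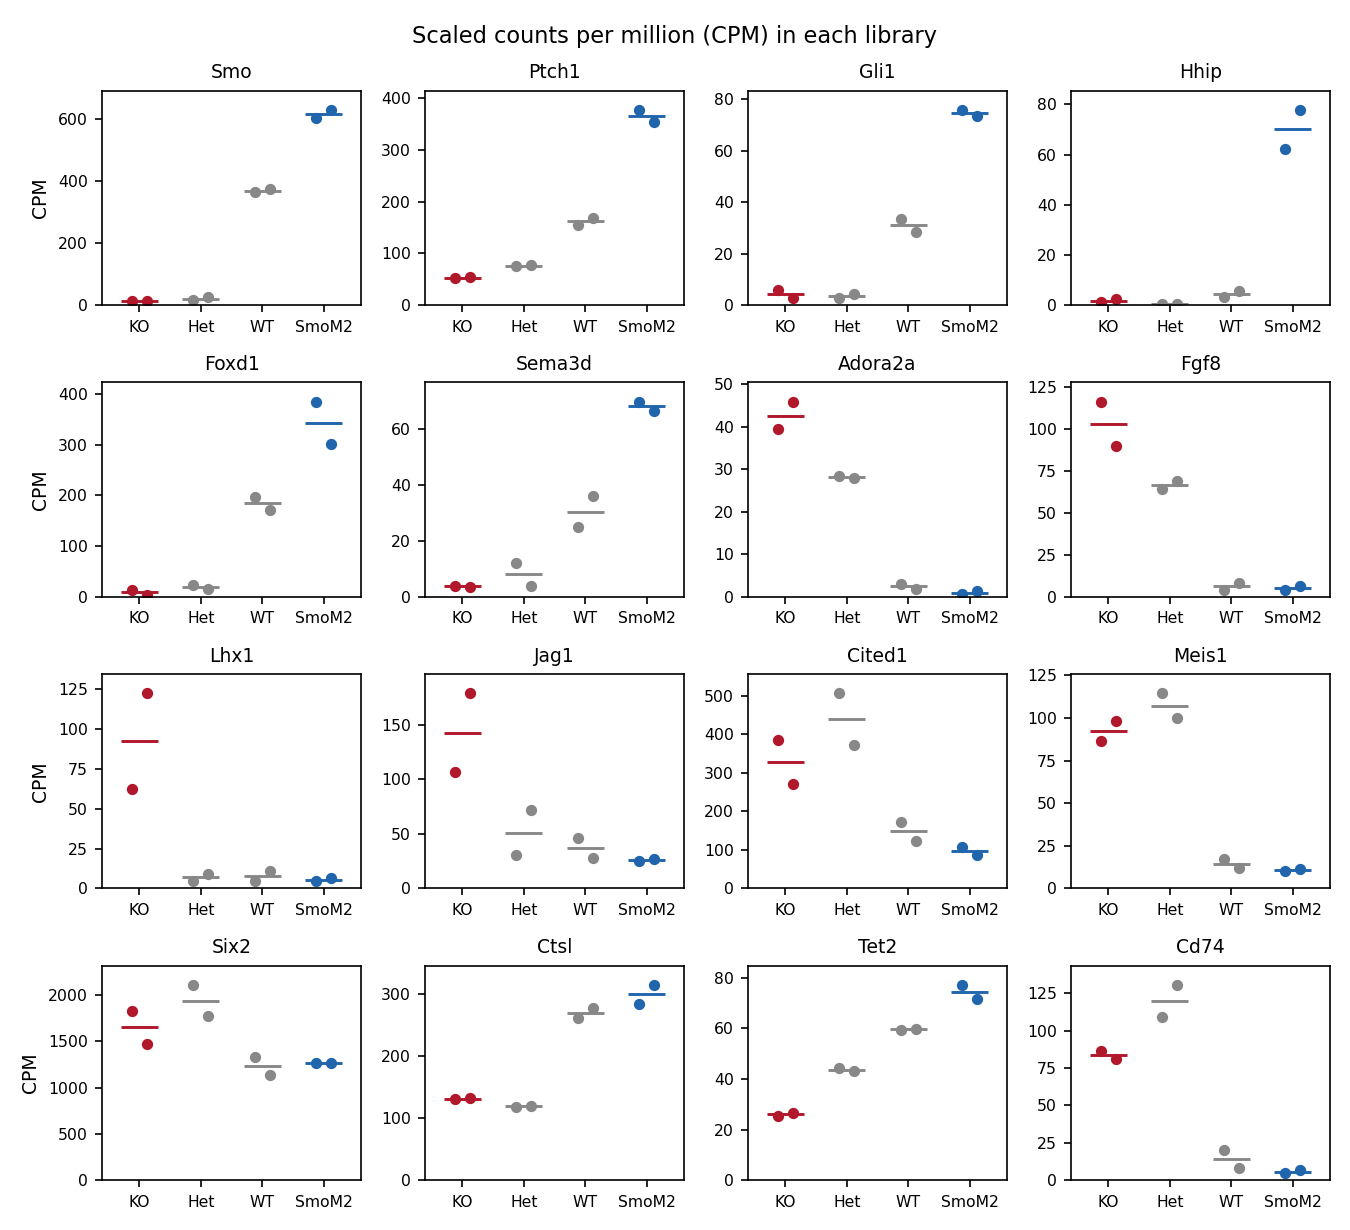
CPM of 16 genes in each library (points) with the mean of the 2 libraries of a group (lines), in KO (red), the libraries labelled Het and WT (grey) and SmoM2 (blue), each panel on its own axis from 0. Smo, Ptch1, Gli1, Hhip, Foxd1 and Sema3d were lower in both KO libraries than in either SmoM2 library, and Adora2a, Fgf8, Lhx1, Jag1, Cited1, Meis1 and Cd74 were higher in both KO libraries than in either SmoM2 library.

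Beyond the pathway itself, the genes with the largest reductions in KO covered transcription factors, adhesion molecules and a lipid carrier. Foxd1, a forkhead factor that marks the renal stroma and here was read in sorted progenitors, was at 12.8 and 3.70 CPM in KO and 385 and 301 CPM in SmoM2 (log2 difference -5.37, SE 0.36, edgeR adjusted p = 6.11e-06). Most other stromal markers were not called lower, and their values are given further on. Pltp, the phospholipid transfer protein, was at 6.64 and 2.39 CPM in KO and 196 and 197 CPM in SmoM2 (log2 difference -5.44, SE 0.30, edgeR adjusted p = 2.39e-06). Its exons are overlapped on the other strand by Ctsa, which differed far less (log2 difference -0.59, edgeR adjusted p = 0.00582). Sfmbt2, a Polycomb group gene that is imprinted in the early mouse embryo and placenta, was at 1.33 and 0.653 CPM in KO and 56.9 and 42.2 CPM in SmoM2 (log2 difference -5.62, SE 0.38, edgeR adjusted p = 6.11e-06). Wfdc1, a secreted protease inhibitor, was at 0.886 and 0.435 CPM in KO and 18.1 and 21.5 CPM in SmoM2 (log2 difference -4.87, SE 0.46, edgeR adjusted p = 5.04e-05).

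The remaining leading genes were close to absent from KO. Lrrc4c, which encodes the netrin-G1 ligand of neuronal synapses, had 1 and 0 counts in KO and 131 and 81 in SmoM2, a ratio of 105 with a 95% counting interval of 18.6 to 4158. Cntn2, an axonal contactin, had 0 and 1 counts in KO and 38 and 57 in SmoM2 (ratio 46.95, interval 8.23 to 1874). Nr0b1 (Dax1), a nuclear receptor of gonad and adrenal development, had 1 and 0 counts in KO and 39 and 46 in SmoM2 (ratio 42.01, interval 7.34 to 1679). These intervals cover counting error only. Kcnj15, an inward rectifier potassium channel, had no count in KO against 5.83 and 5.32 CPM in SmoM2 and was at least 8.39-fold lower (edgeR adjusted p = 0.000578). All 12 genes of largest reduction kept their calls in the alternatives that tested them.

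The genes with the largest increases in KO were transporters, signalling components and transcription factors, and all 12 kept their calls in the alternatives that tested them. Adora2a, an adenosine receptor that raises cAMP, was at 39.4 and 45.9 CPM in KO and 0.613 and 1.27 CPM in SmoM2 (log2 difference 5.50, SE 0.32, edgeR adjusted p = 3.06e-06). Gfra2, the receptor for the GDNF family ligand neurturin, was at 48.3 and 54.2 CPM in KO and 1.74 and 2.08 CPM in SmoM2 (log2 difference 4.74, SE 0.36, edgeR adjusted p = 1.44e-05). Ppp1r1b (DARPP-32), a phosphatase inhibitor controlled by cAMP, was at 56.9 and 39.2 CPM in KO and 2.35 and 2.08 CPM in SmoM2 (log2 difference 4.42, SE 0.30, edgeR adjusted p = 6.43e-06). All 3 were therefore nearly off in SmoM2 and readily counted in KO. Emx2, a homeobox factor needed for the ureteric bud and kidney to form, was at 14.4 and 15.5 CPM in KO and 0.511 and 0.925 CPM in SmoM2 (log2 difference 4.36, SE 0.54, edgeR adjusted p = 0.000234), and the antisense gene Emx2os, whose reads cannot be told apart where it overlaps Emx2, was called in the same direction. The libraries labelled Het and WT stayed at the SmoM2 level of Emx2, with 0.134 and 1.19 CPM in Het and 0.186 and 0.109 CPM in WT. Cldn5, a claudin best known from endothelial tight junctions, showed the same pattern, at 22.1 and 16.98 CPM in KO, 0.535 and 0.679 in Het, 1.21 and 2.07 in WT and 0.716 and 0.809 in SmoM2 (log2 difference 4.66, SE 0.40, edgeR adjusted p = 2.59e-05).

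Slc15a2, a transporter of small peptides, was at 39.6 and 30.04 CPM in KO and 0.102 and 0.578 CPM in SmoM2 (log2 difference 6.67, SE 1.31, edgeR adjusted p = 0.00340). Its libraries labelled WT were 24.98 and 0.762 CPM, so replicates of a single group spanned most of the range. Car4, a membrane carbonic anhydrase, was at 10.4 and 19.6 CPM in KO and 0.102 and 0.462 CPM in SmoM2 (log2 difference 5.70, SE 1.03, edgeR adjusted p = 0.00210). Tnfaip2, first known as a gene induced by TNF, was at 64.2 and 85.6 CPM in KO and 2.86 and 2.43 CPM in SmoM2 (log2 difference 4.81, SE 0.30, edgeR adjusted p = 4.39e-06). Lamp5, a membrane protein of the LAMP family found mainly in neurons, was at 9.96 and 8.06 CPM in KO and 0.613 and 0.116 CPM in SmoM2 (log2 difference 4.52, SE 0.59, edgeR adjusted p = 0.000322). Pnmt, the enzyme that makes adrenaline from noradrenaline, was at 34.1 and 22.2 CPM in KO and 1.74 and 1.39 CPM in SmoM2 (log2 difference 4.15, SE 0.47, edgeR adjusted p = 0.000133), and lies close to Ppp1r1b on chromosome 11. Fgf8 and Lhx1, the other leaders, belong to the early nephron genes described next.

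Most early nephron genes were higher in KO. Of 15 tested genes of early nephron differentiation, 9 were called higher and 1 lower, with a median log2 difference of 1.12, and 6 of the higher genes kept their calls. Fgf8, the growth factor of the pretubular aggregate, was at 116 and 89.9 CPM in KO and 4.09 and 6.13 CPM in SmoM2 (log2 difference 4.34, SE 0.28, edgeR adjusted p = 5.81e-06). Lhx1, a homeobox factor of the renal vesicle, was at 62.2 and 122 CPM in KO and 4.50 and 6.36 CPM in SmoM2 (log2 difference 4.09, SE 0.44, edgeR adjusted p = 9.34e-05). The groups were far apart for both genes, although the KO libraries differed from each other in Lhx1. Pax8, an early marker of induction, was at 371 and 434 CPM in KO and 187 and 184 CPM in SmoM2 (log2 difference 1.12, SE 0.13, edgeR adjusted p = 0.000127). Wnt4, the signal that drives the change to epithelium, was at 292 and 320.2 CPM in KO and 103 and 199.8 CPM in SmoM2 (log2 difference 1.02, SE 0.35, edgeR adjusted p = 0.0425), and its call was lost without either KO library or without SmoM2 replicate 1. Ccnd1, a cyclin of the G1 phase and a Wnt target, was higher by 1.64 on the log2 scale (edgeR adjusted p = 0.0166) and also lost its call without either KO library or SmoM2 replicate 1. Papss2, an enzyme that supplies sulfate donors, was higher by 1.48 (edgeR adjusted p = 0.0255) and lost its call without KO replicate 2 or SmoM2 replicate 1. Sox9 was the member called lower, at 19.5 and 13.3 CPM in KO and 42.5 and 57.7 CPM in SmoM2 (log2 difference -1.61, SE 0.22, edgeR adjusted p = 0.000374).

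Lhx1 and Fgf8 differed from each other in the libraries labelled Het, whereas both were near the SmoM2 level in WT. There Fgf8 was at 4.01 and 8.28 CPM and Lhx1 at 4.66 and 10.9 CPM. Fgf8 was at 64.3 and 68.96 CPM in the libraries labelled Het, nearer to KO, while Lhx1 was at 4.68 and 9.34 CPM there, at the SmoM2 level. Jag1 was at 30.2 and 71.8 CPM in the libraries labelled Het. The early nephron list summed to 1696 and 2075 CPM in KO and to 870 and 1135 CPM in SmoM2. Its sums in Het, 885 and 1203 CPM, and in WT, 772 and 1139 CPM, were near those of SmoM2.

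Several genes of the progenitor state were also higher in KO. Of 18 tested, 8 were called higher and 1 lower, with a median log2 difference of 0.51, and 7 of the higher genes kept their calls. Cited1, which marks the least committed progenitors, was at 385 and 271 CPM in KO and 107 and 85.4 CPM in SmoM2 (log2 difference 1.77, SE 0.22, edgeR adjusted p = 0.000253). Meox1, a homeobox factor of the cap mesenchyme, was at 168 and 115 CPM in KO and 65.03 and 65.6 CPM in SmoM2 (log2 difference 1.11, SE 0.21, edgeR adjusted p = 0.00291). Itga8, an integrin subunit needed for ureteric bud invasion, was at 349.8 and 423 CPM in KO and 251 and 231 CPM in SmoM2 (log2 difference 0.68, SE 0.13, edgeR adjusted p = 0.00265). Hoxa11, a patterning factor of the metanephros, was at 259.5 and 245 CPM in KO and 106 and 132 CPM in SmoM2 (log2 difference 1.08, SE 0.13, edgeR adjusted p = 0.000205). These 4 genes were higher in both KO libraries than in either SmoM2 library, and nearly all called genes lacked overlap in this way. Six2, whose regulatory sequence drives the sorted GFP, was at 1826 and 1475 CPM in KO and 1264 and 1264 CPM in SmoM2 and did not pass the test (log2 difference 0.38, SE 0.15, edgeR adjusted p = 0.0665). Eya1, Wt1, Pax2, Osr1 and Sall1 also did not pass, with log2 differences between -0.32 for Eya1 and 0.63 for Osr1. Gdnf, the ligand that makes the ureteric bud branch, was the member called lower, at 118 and 83.8 CPM in KO and 188 and 271 CPM in SmoM2 (log2 difference -1.18, SE 0.21, edgeR adjusted p = 0.00178).

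The Notch list shares Jag1 and Dll1 with the early nephron list. Of 13 tested Notch pathway genes, 7 were called higher in KO and 1 lower (median 0.94), and 4 of the higher genes kept their calls. The ligand Jag1 was at 107 and 179 CPM in KO and 25.6 and 27.4 CPM in SmoM2 (log2 difference 2.43, SE 0.37, edgeR adjusted p = 0.000745), and the ligand Dll1 was at 27.01 and 29.2 CPM in KO and 7.77 and 6.36 CPM in SmoM2 (log2 difference 1.99, SE 0.27, edgeR adjusted p = 0.000451). Among targets, Hey1 was at 90.3 and 104 CPM in KO and 23.4 and 27.4 CPM in SmoM2 (log2 difference 1.94, SE 0.24, edgeR adjusted p = 0.000268). Nrarp, a target that dampens the pathway, was at 16.2 and 22.9 CPM in KO and 4.19 and 4.39 CPM in SmoM2 (log2 difference 2.18, SE 0.27, edgeR adjusted p = 0.000234). These ligands and targets differed in the same direction. Heyl, a related target, differed the other way, at 18.4 and 18.7 CPM in KO and 109.6 and 93.8 CPM in SmoM2 (log2 difference -2.45, SE 0.19, edgeR adjusted p = 1.44e-05), and kept its call. The receptors Notch1, Notch2 and Notch3 and the target Hes1 did not pass the test. Notch genes called higher numbered 4 without KO replicate 2.

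**Figure D4:**
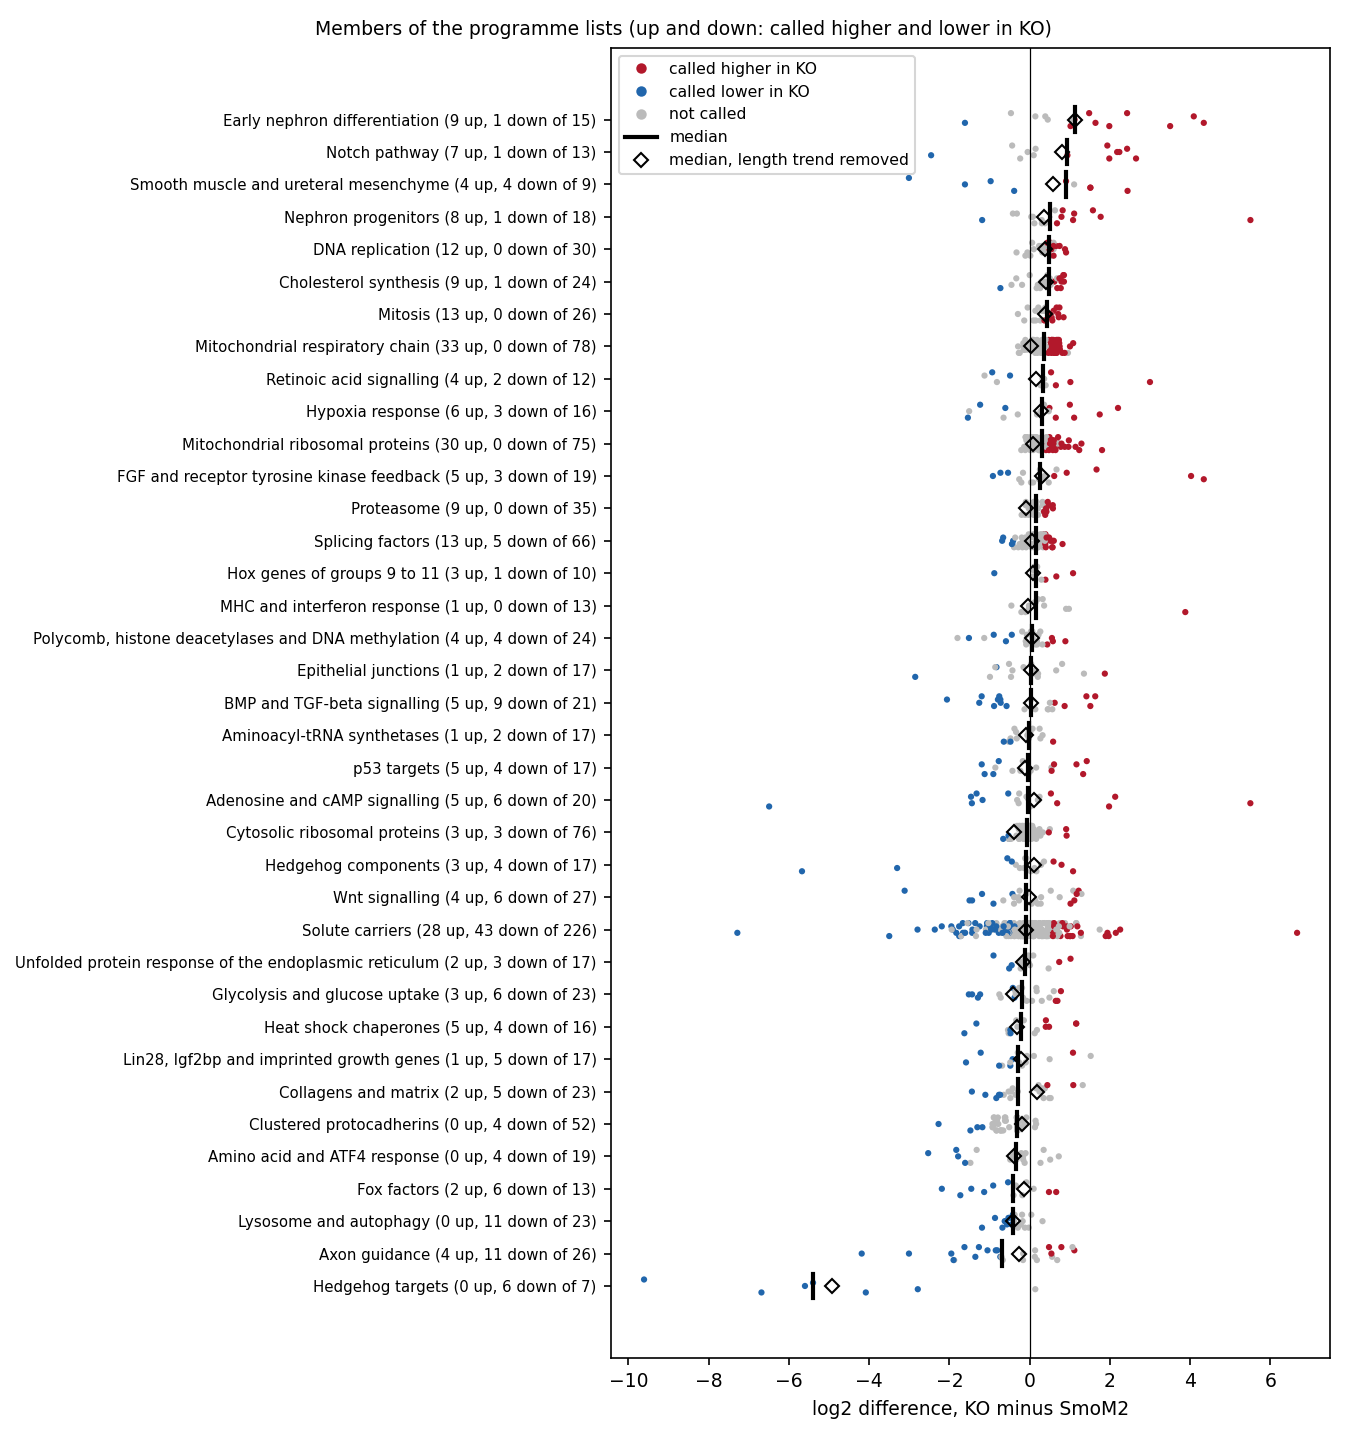
Log2 difference, KO minus SmoM2, of every tested member of the 37 lists of signalling, cell state and cell function genes (points: red called higher, blue called lower, grey not called). The median of each list is a black bar and the median with the length trend removed a diamond. Lists of other cell types, sex and dissociation stress are not drawn. Early nephron differentiation (median 1.12) and the Notch pathway (0.94) lie at the top and the Hedgehog targets (-5.40) at the bottom, and the median over all tested genes was 0.04.

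Wnt genes split. Of 27 tested, 4 were called higher and 6 lower (median -0.08, and 0.01 when scaled by RPKM totals), shares near those of all tested genes. Rspo3, a secreted protein that amplifies Wnt signals, was at 7.75 and 8.27 CPM in KO and 73.8 and 65.2 CPM in SmoM2 (log2 difference -3.11, SE 0.28, edgeR adjusted p = 3.23e-05). Its receptor gene Lgr4 was at 94.99 and 103 CPM in KO and 189 and 181 CPM in SmoM2 (log2 difference -0.90, SE 0.12, edgeR adjusted p = 0.000354). Axin2, a feedback inhibitor and common readout of canonical Wnt signalling, was at 58.2 and 74.2 CPM in KO and 155 and 147 CPM in SmoM2 (log2 difference -1.19, SE 0.19, edgeR adjusted p = 0.00101). These 3 kept their calls. Nkd1, another feedback inhibitor, differed the opposite way from Axin2, at 118 and 131 CPM in KO and 51.2 and 55.4 CPM in SmoM2 (log2 difference 1.22, SE 0.17, edgeR adjusted p = 0.000486), and also kept its call. Lef1 had a log2 difference of 1.09 and did not pass (edgeR adjusted p = 0.0701). Wnt genes called higher numbered 1 without SmoM2 replicate 1 and 2 without KO replicate 2.

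FGF genes included 2 ligands with large increases in KO. Fgf9, which maintains progenitors together with Fgf20, was at 8.19 and 10.01 CPM in KO and 0.409 and 0.693 CPM in SmoM2 (log2 difference 4.02, SE 0.47, edgeR adjusted p = 0.000155), and Fgf8 is given above. Fgf20 itself did not pass (log2 difference 0.67, edgeR adjusted p = 0.144). Of the 19 tested genes of FGF and receptor tyrosine kinase feedback, 5 were called higher and 3 lower, and all 5 higher genes kept their calls. Spry1, an antagonist of receptor tyrosine kinases, was at 281 and 337 CPM in KO and 149 and 177 CPM in SmoM2 (log2 difference 0.92, SE 0.15, edgeR adjusted p = 0.00110). Dusp5, a phosphatase of ERK, was at 46.3 and 94.3 CPM in KO and 19.02 and 25.3 CPM in SmoM2 (log2 difference 1.67, SE 0.29, edgeR adjusted p = 0.00168). Etv5, a transcription factor downstream of FGF and GDNF signals, was lower, at 125 and 115 CPM in KO and 206 and 192 CPM in SmoM2 (log2 difference -0.73, SE 0.12, edgeR adjusted p = 0.00111). Feedback genes therefore did not share a direction, and Dusp6, Spry2 and Fgfr1 did not pass. FGF genes called higher numbered 8 without WT-labelled replicate 1.

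In the BMP and TGF-beta list, 9 of 21 genes were called lower and 5 higher. Receptors and signal carriers made up most of the lower genes. Bmpr2 was at 43.6 and 67.1 CPM in KO and 127 and 127 CPM in SmoM2 (log2 difference -1.19, SE 0.17, edgeR adjusted p = 0.000550), and Bmpr1a at 85.2 and 119.5 CPM in KO and 163 and 176 CPM in SmoM2 (log2 difference -0.73, SE 0.16, edgeR adjusted p = 0.00522). The ligand Bmp7, which supports progenitor renewal, was at 283 and 266 CPM in KO and 458 and 446 CPM in SmoM2 (log2 difference -0.72, SE 0.16, edgeR adjusted p = 0.00552). Smad4, Tgfb3 and the BMP antagonist Nog were lower as well, by log2 differences of -0.57, -1.25 and -2.06. By contrast the ligand Bmp4 was at 88.8 and 79.03 CPM in KO and 33.3 and 25.3 CPM in SmoM2 (log2 difference 1.51, SE 0.23, edgeR adjusted p = 0.000876). Bambi, a decoy receptor, was at 22.1 and 31.8 CPM in KO and 8.90 and 8.44 CPM in SmoM2 (log2 difference 1.64, SE 0.26, edgeR adjusted p = 0.000954). The Smad target Id1 was called higher (log2 difference 1.42, edgeR adjusted p = 0.00929) but lost its call without KO replicate 2 or SmoM2 replicate 1, and Id3 lost its call in the same cases and with the length trend removed. BMP and TGF-beta genes called higher numbered 2 without SmoM2 replicate 1 and 3 without KO replicate 2. The median of this list was 0.04 and turned negative in 7 of the 8 analyses that left out a library, so it gives no direction.

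In the retinoic acid list, 4 of 12 were called higher and 2 lower. Crabp1, a carrier protein of retinoic acid, was at 15.5 and 16.1 CPM in KO and 1.64 and 2.31 CPM in SmoM2 (SE 0.43 on the log2 scale, edgeR adjusted p = 0.000542). Rarb, a receptor that is also a target, was at 30.6 and 25.9 CPM in KO and 48.98 and 58.8 CPM in SmoM2 (log2 difference -0.93, SE 0.16, edgeR adjusted p = 0.00145). These kept their calls, and those called higher numbered 1 without KO replicate 1 or SmoM2 replicate 1 and 2 without SmoM2 replicate 2. The synthetic enzyme Aldh1a2 did not pass (log2 difference 0.27, edgeR adjusted p = 0.189).

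Axon guidance genes were called lower in 11 of 26 tested cases and higher in 4, and 8 of the lower genes kept their calls. The median log2 difference was -0.69, and -0.25 with the length trend removed, where 8 were lower and 6 higher. Sema3d, a secreted semaphorin, was at 3.99 and 3.48 CPM in KO and 69.8 and 66.5 CPM in SmoM2 (log2 difference -4.18, SE 0.42, edgeR adjusted p = 6.37e-05). Slit3, a ligand of Robo receptors, was at 7.53 and 8.06 CPM in KO and 61.1 and 64.4 CPM in SmoM2 (log2 difference -3.01, SE 0.24, edgeR adjusted p = 1.90e-05). Robo2, the receptor that limits ureteric budding by restricting the Gdnf domain, was at 199 and 203 CPM in KO and 641 and 597 CPM in SmoM2 (log2 difference -1.62, SE 0.16, edgeR adjusted p = 5.23e-05). The ligand and receptor genes were therefore both lower. Nrp1, a semaphorin and VEGF receptor, was at 119 and 117 CPM in KO and 299 and 268 CPM in SmoM2 (log2 difference -1.26, SE 0.19, edgeR adjusted p = 0.000659). Ephb2, a receptor of ephrins, was at 22.1 and 34.4 CPM in KO and 93.9 and 125 CPM in SmoM2 (log2 difference -1.95, SE 0.24, edgeR adjusted p = 0.000223). Robo1, Plxna2 and Sema6a were lower by log2 differences of -1.05, -1.35 and -1.90. Slit2 was called lower (log2 difference -0.73, edgeR adjusted p = 0.0106) and lost its call with the length trend removed and without KO replicate 1 or SmoM2 replicate 2. Sema3f moved the other way, at 700.1 and 527 CPM in KO and 304 and 262 CPM in SmoM2 (log2 difference 1.11, SE 0.16, edgeR adjusted p = 0.000476), and kept its call. Guidance genes called higher numbered 1 without SmoM2 replicate 1 or SmoM2 replicate 2 and 2 without KO replicate 2.

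Matrix genes depended on the treatment of gene length. As counted, 5 of 23 were lower and 2 higher, with a median of -0.30. With the length trend removed 2 were lower and 7 higher, and the median was 0.18. Tenascin C (Tnc), a matrix glycoprotein of remodelling tissue, was lower and kept its call. Fibronectin (Fn1) also kept its call, at 84.4 and 96.4 CPM in KO and 169 and 219 CPM in SmoM2 (log2 difference -1.10, SE 0.20, edgeR adjusted p = 0.00189). Vcan, a large proteoglycan, was at 980.00 and 1120.3 CPM in KO and 2053 and 1680.4 CPM in SmoM2 (log2 difference -0.83, SE 0.16, edgeR adjusted p = 0.00331), but lost its call with the length trend removed. Lamb1, a laminin chain of basement membranes, was higher, at 521 and 768 CPM in KO and 280.1 and 326 CPM in SmoM2 (log2 difference 1.09, SE 0.24, edgeR adjusted p = 0.00662), and lost its call without KO replicate 2 or SmoM2 replicate 1. Matrix genes called higher numbered 0 without SmoM2 replicate 1 and 1 without Het-labelled replicate 1, Het-labelled replicate 2 or SmoM2 replicate 2, and those called lower numbered 9 without KO replicate 2.

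Cell adhesion genes of the epithelial junction list were mostly not called, with 1 of 17 higher and 2 lower. Cdh3, P-cadherin, was at 20.1 and 22.2 CPM in KO and 5.42 and 6.13 CPM in SmoM2 (log2 difference 1.87, SE 0.26, edgeR adjusted p = 0.000464). Cdh11, a cadherin of mesenchymal cells, was at 291 and 398 CPM in KO and 576 and 646 CPM in SmoM2 (log2 difference -0.83, SE 0.16, edgeR adjusted p = 0.00311). Cdh2, Cdh6 and Epcam did not pass, and Cdh1, Cldn3 and Cldn4 had too few counts to test. Keratin 19 (Krt19) had 2 and 0 counts in KO and 15 and 16 in SmoM2, and its call was lost without KO replicate 2 or either SmoM2 library. Of 52 tested clustered protocadherins, 4 were called lower and none higher, and none of the 4 kept its call. Their median log2 difference was -0.32, and 3 of the 52 lay above 0, against 53.2% of all tested genes. The clustered genes share exons and close copies, so their counts are uncertain.

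Of 9 tested genes of smooth muscle and ureteral mesenchyme, 4 were called higher and 4 lower, and smooth muscle genes and mesenchymal regulators were found in both directions. Acta2, smooth muscle actin, was at 31.7 and 16.1 CPM in KO and 4.70 and 4.04 CPM in SmoM2 (log2 difference 2.44, SE 0.40, edgeR adjusted p = 0.00121) and kept its call, while Tagln (log2 difference 1.52, edgeR adjusted p = 0.0124) and Myl9 (log2 difference 0.91, edgeR adjusted p = 0.0179) lost theirs without KO replicate 1 or without either SmoM2 library, and Myl9 also with the length trend removed. Tshz3, a factor of ureteral smooth muscle, was at 0.664 and 0.653 CPM in KO and 4.50 and 6.36 CPM in SmoM2 (log2 difference -3.01, SE 0.53, edgeR adjusted p = 0.00193). Desmin (Des), an intermediate filament, was at 164 and 152 CPM in KO and 304 and 314 CPM in SmoM2 (log2 difference -0.97, SE 0.17, edgeR adjusted p = 0.00196). Tshz3 and Des kept their calls. Bmp4, a ligand of the mesenchyme, was called higher (log2 difference 1.51, edgeR adjusted p = 0.000876) and kept its call, and Sox9 was lower as given above. Smooth muscle genes called higher numbered 2 without KO replicate 1, SmoM2 replicate 1 or SmoM2 replicate 2, and the median of 0.91 became -0.42 without KO replicate 1.

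Cell cycle genes that were called differed by small amounts. Of 30 DNA replication genes, 12 were called higher and none lower, with a median log2 difference of 0.49. Of 26 mitosis genes, 13 were called higher and none lower, with a median of 0.43. Only 3 replication genes and 3 mitosis genes kept their calls in all alternatives that tested them. Tyms, which makes thymidylate, was at 52.9 and 73.1 CPM in KO and 31.3 and 35.9 CPM in SmoM2 (log2 difference 0.91, SE 0.18, edgeR adjusted p = 0.00312). Rfc2, a subunit of the clamp loader, was at 112 and 93.2 CPM in KO and 58.5 and 63.4 CPM in SmoM2 (log2 difference 0.75, SE 0.13, edgeR adjusted p = 0.00177). Among mitosis genes, Cdca8, a part of the chromosomal passenger complex, was at 76.2 and 70.8 CPM in KO and 37.8 and 43.9 CPM in SmoM2 (log2 difference 0.85, SE 0.15, edgeR adjusted p = 0.00189). Plk1, a kinase of mitotic entry and exit, was at 64.4 and 89.5 CPM in KO and 47.96 and 43.9 CPM in SmoM2 (log2 difference 0.74, SE 0.16, edgeR adjusted p = 0.00550). For each of these 4 genes both KO libraries lay above both SmoM2 libraries, and nearly all called genes lacked overlap in this way. Mki67, the usual marker of cycling cells, did not pass (log2 difference -0.13, edgeR adjusted p = 0.568), and neither did Pcna (log2 difference 0.60, edgeR adjusted p = 0.0703) or Top2a (log2 difference 0.22, edgeR adjusted p = 0.300). Replication genes called higher numbered 3 without KO replicate 2, 4 without SmoM2 replicate 1, 6 without SmoM2 replicate 2 and 7 without Het-labelled replicate 1 or Het-labelled replicate 2. Mitosis genes called higher numbered 4 without KO replicate 2 or SmoM2 replicate 1 and 6 without SmoM2 replicate 2.

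p53 target genes were called in both directions, 5 of 17 higher and 4 lower. Phlda3, an inhibitor of Akt, was at 209 and 157 CPM in KO and 75.5 and 69.7 CPM in SmoM2 (log2 difference 1.33, SE 0.15, edgeR adjusted p = 0.000148). Btg2, an antiproliferative gene that is also on the dissociation stress list, was higher too (log2 difference 1.17, edgeR adjusted p = 0.00233). Trp53inp1 was lower, at 30.8 and 27.9 CPM in KO and 75.9 and 58.1 CPM in SmoM2 (log2 difference -1.19, SE 0.18, edgeR adjusted p = 0.000876), as was Sesn1 (log2 difference -0.90, edgeR adjusted p = 0.00229). These 4 kept their calls. Cdkn1a, the p21 inhibitor of cyclin dependent kinases, was called lower (log2 difference -1.12, edgeR adjusted p = 0.0498) but lost its call without either KO library or SmoM2 replicate 2. p53 targets called higher numbered 2 without KO replicate 1 or SmoM2 replicate 1, and those called lower numbered 2 without SmoM2 replicate 2. Mdm2 did not pass (log2 difference -0.23, edgeR adjusted p = 0.164).

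In energy metabolism, isoforms of hexokinase, the first enzyme of glycolysis, differed in opposite directions. Hk1 was at 49.2 and 58.3 CPM in KO and 156 and 152 CPM in SmoM2 (log2 difference -1.51, SE 0.14, edgeR adjusted p = 3.82e-05), and kept its call. Hk2, the hexokinase induced by growth signals, was higher, at 79.5 and 85.99 CPM in KO and 36.9 and 59.6 CPM in SmoM2 (log2 difference 0.78, SE 0.24, edgeR adjusted p = 0.0275), but lost its call without either KO library or SmoM2 replicate 1. Of 23 tested glycolysis and glucose uptake genes, 3 were higher and 6 lower, so most were not called. Pdk1, a kinase of pyruvate dehydrogenase, was at 38.97 and 43.5 CPM in KO and 87.3 and 107 CPM in SmoM2 (log2 difference -1.23, SE 0.22, edgeR adjusted p = 0.00194). The abundant enzymes Aldoa, Eno1, Ldha, Pkm and Pgk1 did not pass. Glycolysis genes called lower numbered 3 without KO replicate 2 or SmoM2 replicate 2, and those called higher numbered 1 without KO replicate 2 or SmoM2 replicate 1. Gapdh, which has many close copies in the mouse genome, was counted at only 3.54 and 2.83 CPM in KO and 2.66 and 8.21 CPM in SmoM2, so its level is uncertain.

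Hypoxia response genes were called higher in 6 of 16 cases and lower in 3. Vegfa, the main endothelial growth factor, was at 383 and 364 CPM in KO and 167 and 179 CPM in SmoM2 (log2 difference 1.11, SE 0.14, edgeR adjusted p = 0.000253). Car12, a carbonic anhydrase, was at 81.04 and 77.1 CPM in KO and 24.9 and 22.1 CPM in SmoM2 (log2 difference 1.75, SE 0.19, edgeR adjusted p = 0.000105), and Ankrd37 at 11.7 and 8.93 CPM in KO and 2.04 and 2.43 CPM in SmoM2 (log2 difference 2.20, SE 0.33, edgeR adjusted p = 0.000672). These 3 kept their calls. P4ha2, a collagen prolyl hydroxylase, and Pdk1 were lower by log2 differences of -1.54 and -1.23, so members of the list differed in opposite directions. Hypoxia genes called higher numbered 3 without SmoM2 replicate 2.

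All called genes of the mitochondrial lists were higher in KO. Of 78 respiratory chain subunits 33 were higher, and of 75 mitochondrial ribosomal proteins 30. Their median log2 differences were 0.37 and 0.31. These genes are short, and with the length trend removed the counts were 8 higher and 3 lower for the respiratory chain (median 0.03) and 17 higher and 2 lower for the ribosomal proteins (median 0.09). The respiratory count was 5 without SmoM2 replicate 1 and 9 without KO replicate 1. For the ribosomal proteins it was 11 without KO replicate 1 or SmoM2 replicate 1 and 19 without SmoM2 replicate 2. Members that kept their calls included Ndufc1 of complex I, at 57.8 and 50.5 CPM in KO and 24.3 and 26.7 CPM in SmoM2 (log2 difference 1.09, SE 0.18, edgeR adjusted p = 0.00137). Mrpl14, a protein of the large mitochondrial subunit, was at 61.1 and 46.8 CPM in KO and 16.3 and 14.6 CPM in SmoM2 (log2 difference 1.81, SE 0.19, edgeR adjusted p = 9.67e-05).

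Cytosolic ribosomal protein genes depended on the treatment of gene length. As counted, 3 of 76 were higher and 3 lower, with a median of -0.07, or 0.03 when scaled by RPKM totals. With the length trend removed 52 were lower and 0 higher, with a median of -0.40. None kept its call, and ribosomal protein genes have many processed copies, so single members are not described. Both abundant translation elongation factors, by contrast, were called lower with and without the length trend. Eef2 was at 6452 and 5892 CPM in KO and 9392 and 9531 CPM in SmoM2 (log2 difference -0.62, SE 0.12, edgeR adjusted p = 0.00325), and Eef1a1 at 7256 and 7293 CPM in KO and 9527 and 10439 CPM in SmoM2 (log2 difference -0.46, SE 0.12, edgeR adjusted p = 0.0129). Eef2 kept its call, and Eef1a1 lost it without either KO library or without SmoM2 replicate 2.

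Proteasome subunits were called higher in 9 of 35 cases and never lower, but with the length trend removed 0 were higher and 2 lower. Proteasome genes called higher numbered 0 without SmoM2 replicate 1, 1 without KO replicate 1, 2 without SmoM2 replicate 2, 3 without Het-labelled replicate 1 or Het-labelled replicate 2, 4 without WT-labelled replicate 2 and 5 without KO replicate 2. Of 66 splicing factors, 13 were higher and 5 lower. Hnrnph3 was at 152 and 129.8 CPM in KO and 77.2 and 82.4 CPM in SmoM2 (log2 difference 0.82, SE 0.16, edgeR adjusted p = 0.00305), and Srsf7 at 338 and 345 CPM in KO and 216 and 233 CPM in SmoM2 (log2 difference 0.60, SE 0.11, edgeR adjusted p = 0.00237). These 2 kept their calls. Splicing factors called higher numbered 2 without SmoM2 replicate 1, 5 without KO replicate 1, 6 without Het-labelled replicate 1 or Het-labelled replicate 2, 7 without SmoM2 replicate 2 and 8 without KO replicate 2, and those called lower numbered 0 without KO replicate 1 and 3 without SmoM2 replicate 2. Of 17 aminoacyl-tRNA synthetases, Wars was higher (log2 difference 0.59, edgeR adjusted p = 0.00472) and Qars lower (log2 difference -0.48, edgeR adjusted p = 0.00999), and both kept their calls. Iars was called lower (log2 difference -0.64, edgeR adjusted p = 0.0350) and lost its call with the length trend removed and without KO replicate 1 or SmoM2 replicate 1. Synthetases called lower numbered 1 without KO replicate 1 or SmoM2 replicate 1, 4 without WT-labelled replicate 1 and 6 without WT-labelled replicate 2.

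Of 23 tested lysosome and autophagy genes, 11 were called lower in KO and none higher, and 5 kept their calls. The median log2 difference was -0.41, and with the length trend removed 10 were lower (median -0.41). Ctsl, cathepsin L, was at 132 and 132 CPM in KO and 285 and 314 CPM in SmoM2 (log2 difference -1.19, SE 0.11, edgeR adjusted p = 5.53e-05). Sqstm1 (p62), a receptor for autophagy cargo, was at 208 and 207 CPM in KO and 315 and 322 CPM in SmoM2 (log2 difference -0.62, SE 0.12, edgeR adjusted p = 0.00299). The 2 libraries of each group were close together for these genes and the groups did not overlap, as for nearly all called genes. The acid glucosidase gene Gaa and the protective protein gene Ctsa were lower and kept their calls too. Exons of Ctsa are overlapped on the other strand by Pltp (log2 difference -5.44). The part of Pltp reads in the Ctsa difference was not tested. Lysosome genes called lower numbered 7 without KO replicate 1 or KO replicate 2. Tfeb, the transcription factor of the lysosomal programme, did not pass (log2 difference -0.17, edgeR adjusted p = 0.445).

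Of 19 tested genes of the amino acid and ATF4 response, 4 (21.1%) were called lower and none higher, a share near the 16.0% of all tested genes. The median log2 difference was -0.33, and 4 of the 19 lay above 0, against 53.2% of all tested genes. Whether the list has a direction of its own was not tested. All 4 called genes kept their calls. Slc7a5, which imports leucine and other large neutral amino acids, was at 56.9 and 79.5 CPM in KO and 214 and 271 CPM in SmoM2 (log2 difference -1.83, SE 0.26, edgeR adjusted p = 0.000529). Slc7a1, a carrier of arginine and lysine, was at 48.05 and 77.5 CPM in KO and 173 and 209.6 CPM in SmoM2 (log2 difference -1.61, SE 0.28, edgeR adjusted p = 0.00165). Aldh18a1, the first enzyme of proline synthesis, was at 40.1 and 46.2 CPM in KO and 149.7 and 147 CPM in SmoM2 (log2 difference -1.78, SE 0.23, edgeR adjusted p = 0.000330). Vldlr, a lipoprotein receptor, was at 7.09 and 9.14 CPM in KO and 40.8 and 53.05 CPM in SmoM2 (log2 difference -2.53, SE 0.38, edgeR adjusted p = 0.000798). Atf4 itself, Asns, Trib3 and Chac1 did not pass, so the called members were 2 carriers, an enzyme and a receptor.

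Chaperone lists gave no shared direction. The unfolded protein response had 2 higher and 3 lower of 17 tested, and none of these kept its call. Hspa5, the main chaperone of the endoplasmic reticulum, did not pass (log2 difference -0.13, edgeR adjusted p = 0.701). Unfolded protein response genes called higher numbered 0 without KO replicate 1, KO replicate 2 or SmoM2 replicate 1 and 1 without Het-labelled replicate 1 or Het-labelled replicate 2, and those called lower numbered 0 without KO replicate 1 and 1 without SmoM2 replicate 2. Of 16 heat shock genes, 5 were higher and 4 lower. Hspa4l was at 16.2 and 16.3 CPM in KO and 47.4 and 52.9 CPM in SmoM2 (log2 difference -1.63, SE 0.17, edgeR adjusted p = 6.97e-05), while the related Hsph1 was at 70.4 and 68.1 CPM in KO and 21.7 and 40.6 CPM in SmoM2 (log2 difference 1.16, SE 0.23, edgeR adjusted p = 0.00313). Both kept their calls. The heat shock count higher was 2 without SmoM2 replicate 1 or SmoM2 replicate 2 and 3 without KO replicate 1, KO replicate 2, Het-labelled replicate 1 or Het-labelled replicate 2, and the count lower was 1 without KO replicate 1 or SmoM2 replicate 2.

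Cholesterol synthesis genes were called higher in 9 of 24 cases and lower in 1 (median 0.47). Mvd, which makes isopentenyl pyrophosphate, was at 67.1 and 64.00 CPM in KO and 34.5 and 38.8 CPM in SmoM2 (log2 difference 0.84, SE 0.14, edgeR adjusted p = 0.00131). Fdft1, squalene synthase, was at 46.3 and 47.9 CPM in KO and 25.7 and 28.7 CPM in SmoM2 (log2 difference 0.79, SE 0.15, edgeR adjusted p = 0.00242). Only these 2 kept their calls. Cholesterol genes called higher numbered 3 without SmoM2 replicate 1, 4 without KO replicate 2 and 5 without KO replicate 1. Srebf2, the transcription factor of the programme, was called lower (log2 difference -0.73, edgeR adjusted p = 0.0389) and lost its call with the length trend removed and without either KO library or SmoM2 replicate 2.

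Of 13 tested Fox factors outside the Hedgehog targets, 6 were called lower in KO, 5 of which kept their calls, and 2 higher, with a median of -0.40, or -0.14 with the length trend removed. Foxc1, a mesenchymal factor expressed in kidney progenitors, was at 275 and 219 CPM in KO and 792 and 844 CPM in SmoM2 (log2 difference -1.73, SE 0.15, edgeR adjusted p = 2.98e-05). Its close relative Foxc2 was called higher, at 234 and 231 CPM in KO and 132 and 162 CPM in SmoM2 (log2 difference 0.66, SE 0.15, edgeR adjusted p = 0.00575), and lost its call without SmoM2 replicate 1. The pair therefore differed in opposite directions. Foxn3, Foxp4 and Foxo3 were lower by log2 differences of -2.19, -1.13 and -0.91. Foxo1 was at 30.8 and 34.8 CPM in KO and 124 and 55.9 CPM in SmoM2 (log2 difference -1.45, SE 0.29, edgeR adjusted p = 0.00357), with the 2 SmoM2 libraries apart from each other. Fox factors called higher numbered 0 without SmoM2 replicate 1 and 1 without KO replicate 2 or SmoM2 replicate 2.

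Of 10 tested Hox genes of groups 9 to 11, 3 were called higher and 1 lower. The higher genes lay in the HoxA cluster, with Hoxa11 given above and Hoxa10 at 259 and 265 CPM in KO and 161 and 169 CPM in SmoM2 (log2 difference 0.67, SE 0.12, edgeR adjusted p = 0.00210). Hoxa9 was called with a log2 difference of 0.39 (edgeR adjusted p = 0.0399), but lost its call in 10 alternatives, among them those without KO replicate 1 or either SmoM2 library. Hoxd9 was lower, at 72.4 and 60.96 CPM in KO and 121 and 124 CPM in SmoM2 (log2 difference -0.88, SE 0.13, edgeR adjusted p = 0.000755), and Hoxd10 and Hoxd11 did not pass.

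Chromatin regulators were called at the shares of all tested genes, 4 of 24 higher and 4 lower. Ezh2, the methyltransferase of Polycomb repressive complex 2, was at 98.5 and 113 CPM in KO and 65.2 and 48.7 CPM in SmoM2 (log2 difference 0.89, SE 0.16, edgeR adjusted p = 0.00209). Tet2, an enzyme that oxidises methylcytosine, was at 25.5 and 26.6 CPM in KO and 76.99 and 71.4 CPM in SmoM2 (log2 difference -1.51, SE 0.13, edgeR adjusted p = 2.59e-05). Both kept their calls, and Tet2 lay between KO and SmoM2 in the other groups, at 44.1 and 43.1 CPM in Het and 59.5 and 59.9 CPM in WT. Tet3 was lower (log2 difference -0.89, edgeR adjusted p = 0.00159) and Tet1 was called lower (log2 difference -0.59, edgeR adjusted p = 0.0345), and with the length trend removed Tet3 lost its call and the log2 difference of Tet1 turned to 0.07. Tet1 also lost its call without KO replicate 1 or SmoM2 replicate 1. Chromatin regulators called higher numbered 1 without KO replicate 1 or SmoM2 replicate 1 and 2 without SmoM2 replicate 2.

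Growth regulators of the Lin28, Igf2bp and imprinted list were lower in 5 and higher in 1 of 17 tested. Peg3, an imprinted zinc finger gene, was at 291 and 331 CPM in KO and 815 and 633 CPM in SmoM2 (log2 difference -1.22, SE 0.18, edgeR adjusted p = 0.000658). Plagl1, an imprinted regulator of growth, was at 12.8 and 5.88 CPM in KO and 29.8 and 26.3 CPM in SmoM2 (log2 difference -1.58, SE 0.34, edgeR adjusted p = 0.00508). The Myc family split between members. Myc was lower, at 84.1 and 86.4 CPM in KO and 154 and 134 CPM in SmoM2 (log2 difference -0.76, SE 0.16, edgeR adjusted p = 0.00518), and kept its call. Mycn was called higher, at 124 and 159.6 CPM in KO and 69.8 and 64.1 CPM in SmoM2 (log2 difference 1.08, SE 0.33, edgeR adjusted p = 0.0284), but lost its call without any 1 of the 4 compared libraries. Igf2 (log2 difference -0.69, edgeR adjusted p = 0.0574) and H19 (log2 difference -0.26, edgeR adjusted p = 0.333) did not pass. Igf2bp1 and Grb10 were called lower and lost their calls with the length trend removed and without KO replicate 2 or either SmoM2 library, Grb10 also without KO replicate 1. Growth genes called lower numbered 3 without KO replicate 2, SmoM2 replicate 1 or SmoM2 replicate 2, and those called higher numbered 0 without KO replicate 1, SmoM2 replicate 1 or SmoM2 replicate 2 and 2 without KO replicate 2.

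Genes of adenosine and cAMP signalling were called in 11 of 20 cases, 5 higher and 6 lower in KO. Both tested adenosine receptors were higher. Besides Adora2a, the A1 receptor gene Adora1 was at 36.98 and 39.6 CPM in KO and 13.9 and 5.32 CPM in SmoM2 (log2 difference 1.98, SE 0.40, edgeR adjusted p = 0.00371). Of the 4 listed phosphodiesterases, which break down cAMP, Pde10a did not pass (log2 difference 0.22, edgeR adjusted p = 0.743) and the others were lower, Pde4d at 9.08 and 7.84 CPM in KO and 26.1 and 19.8 CPM in SmoM2 (log2 difference -1.44, SE 0.28, edgeR adjusted p = 0.00309) and Pde3a at 9.30 and 8.49 CPM in KO and 18.8 and 25.8 CPM in SmoM2 (log2 difference -1.32, SE 0.27, edgeR adjusted p = 0.00382). Pde4b had no count in KO and 1.53 and 1.39 CPM in SmoM2, at least 2.20-fold lower against the floor of 3 counts per library (edgeR adjusted p = 0.00560). Pkia, an inhibitor of protein kinase A, was lower by a log2 difference of -1.17. Among the cyclases that make cAMP, Adcy9 was lower (log2 difference -1.46, edgeR adjusted p = 0.00212) and Adcy3 was called higher (log2 difference 0.53, edgeR adjusted p = 0.0414) but lost its call in 10 of the 18 alternatives, and Adcy5, Adcy6 and Adcy7 did not pass. Adenosine and cAMP genes called higher numbered 2 without SmoM2 replicate 1 or SmoM2 replicate 2 and 3 without KO replicate 1 or KO replicate 2.

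Of 226 tested solute carriers, 43 were lower and 28 higher in KO, close to the shares of all tested genes, and 17 and 8 of them kept their calls. Slc12a2 (NKCC1), a cotransporter of sodium, potassium and chloride, was at 293 and 339.6 CPM in KO and 1283 and 1160.3 CPM in SmoM2 (log2 difference -1.95, SE 0.17, edgeR adjusted p = 2.59e-05). Slc6a6, the taurine transporter, was at 78.2 and 90.8 CPM in KO and 292 and 279 CPM in SmoM2 (log2 difference -1.76, SE 0.12, edgeR adjusted p = 7.51e-06). Slc1a3, a glutamate transporter, was at 30.6 and 31.1 CPM in KO and 129.96 and 103 CPM in SmoM2 (log2 difference -1.91, SE 0.16, edgeR adjusted p = 2.24e-05). Slc36a1, which carries amino acids out of lysosomes, was at 19.5 and 20.03 CPM in KO and 63.7 and 66.6 CPM in SmoM2 (log2 difference -1.72, SE 0.15, edgeR adjusted p = 2.59e-05). Slc16a12, a monocarboxylate carrier family member, had no count in KO and 2.66 and 2.43 CPM in SmoM2, at least 3.83-fold lower (edgeR adjusted p = 0.00555). Among higher genes, Slc45a3 was at 101 and 123 CPM in KO and 29.04 and 21.5 CPM in SmoM2 (log2 difference 2.15, SE 0.17, edgeR adjusted p = 1.53e-05). The monocarboxylate carrier Slc16a1 was at 157 and 189 CPM in KO and 105 and 109 CPM in SmoM2 (log2 difference 0.69, SE 0.13, edgeR adjusted p = 0.00253). Solute carriers called lower numbered 24 without KO replicate 1, and those called higher numbered 13 without SmoM2 replicate 2, 14 without KO replicate 1 and 17 without SmoM2 replicate 1.

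A single member of the MHC and interferon list was called, of 13 tested. Cd74, the invariant chain of MHC class II, was at 86.6 and 80.8 CPM in KO and 4.70 and 6.70 CPM in SmoM2 (log2 difference 3.88, SE 0.34, edgeR adjusted p = 2.90e-05), with 109 and 130.4 CPM in the libraries labelled Het and 19.9 and 7.84 CPM in WT. Ptprc, the marker of all white blood cells, had too few counts to test, and the 12 listed immune markers summed to 23.9 and 2.18 CPM in KO and 9.20 and 5.89 CPM in SmoM2. None of the 5 tested immune markers was called. The part of immune cells in the Cd74 difference was not tested.

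Some abundant transcripts differed by small folds but large amounts. Actb was at 2279.7 and 2220.1 CPM in KO and 1405 and 1654 CPM in SmoM2 (log2 difference 0.56, SE 0.14, edgeR adjusted p = 0.0114), and Ptma, an abundant nuclear protein with many processed copies, at 2231 and 2484 CPM in KO and 1479 and 1747 CPM in SmoM2 (log2 difference 0.55, SE 0.14, edgeR adjusted p = 0.0138). Both lost their calls without SmoM2 replicate 1, Actb also without KO replicate 1, and Ptma also without KO replicate 2 and with the length trend removed. Larger folds were found for Tril, a leucine rich repeat protein, at 1205 and 1251 CPM in KO and 563 and 436 CPM in SmoM2 (log2 difference 1.30, SE 0.16, edgeR adjusted p = 0.000267), and for the homeobox gene Uncx, at 1433 and 1076 CPM in KO and 537 and 593 CPM in SmoM2 (log2 difference 1.15, SE 0.15, edgeR adjusted p = 0.000335). Mdk, the heparin binding growth factor midkine, was at 1482 and 1284 CPM in KO and 663 and 812 CPM in SmoM2 (log2 difference 0.91, SE 0.17, edgeR adjusted p = 0.00225). Tril, Uncx and Mdk kept their calls. Tsc22d1 and the matrix genes Spock2 and Sparc were higher by log2 differences of 0.58, 0.69 and 0.44 and lost their calls without single libraries, Tsc22d1 without KO replicate 1 or SmoM2 replicate 2, Spock2 without KO replicate 2 or SmoM2 replicate 1, and Sparc without KO replicate 1, either SmoM2 library or either library labelled Het. On the lower side, Fat1, an atypical cadherin, was at 275 and 393 CPM in KO and 1233 and 1067 CPM in SmoM2 (log2 difference -1.78, SE 0.20, edgeR adjusted p = 0.000145). App, the amyloid precursor protein, was at 638 and 739.5 CPM in KO and 1477 and 1446 CPM in SmoM2 (log2 difference -1.09, SE 0.13, edgeR adjusted p = 0.000164). Shisa3, a regulator of Wnt and FGF receptors, was at 289 and 283 CPM in KO and 1041 and 849 CPM in SmoM2 (log2 difference -1.72, SE 0.30, edgeR adjusted p = 0.00183), although its libraries labelled Het held 1194 and 759 CPM. Fat1, App and Shisa3 kept their calls. The chaperone Hsp90ab1 and the ubiquitin ligase Nedd4 had log2 differences of -0.48 and -0.48 and lost their calls without KO replicate 1 or SmoM2 replicate 2, and Nedd4 also with the length trend removed.

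Markers of other cell types were read beside these groups. Of 14 tested stromal markers, 2 were higher and 4 lower in KO, and their summed level was 1300.4 and 654 CPM in the KO and 1238 and 1156 CPM in the SmoM2 libraries. Foxd1 was lower, and Tcf21 and Meis1 were higher, Meis1 at 86.4 and 98.4 CPM in KO and 10.4 and 11.6 CPM in SmoM2 (log2 difference 3.07, SE 0.19, edgeR adjusted p = 3.20e-06) and Tcf21 at 134 and 134 CPM in KO and 35.1 and 27.97 CPM in SmoM2 (log2 difference 2.08, SE 0.24, edgeR adjusted p = 0.000133). Pdgfra, Pdgfrb, Col1a1, Col3a1 and Meis2 did not pass. The stromal markers therefore did not move together, with 5 of the 14 above 0 and a median log2 difference of -0.19. Lum and Twist1, which were called lower, were low, Twist1 at 1.99 and 0.871 CPM in KO and 6.95 and 7.86 CPM in SmoM2, and both lost their calls without KO replicate 2, Lum also without SmoM2 replicate 1. The remaining marker called lower also lost its call, in 6 of the 18 alternatives. Stromal markers called lower numbered 1 without KO replicate 2. Of 6 tested markers of the collecting duct and ureteric bud, 2 were lower and none higher, Wnt11 at 3.10 and 1.09 CPM in KO and 24.1 and 34.2 CPM in SmoM2 (log2 difference -3.79, SE 0.39, edgeR adjusted p = 7.81e-05) and Krt19 as given above. The duct markers Wnt9b, Gata3, Calb1 and Aqp2 had too few counts to test. Plvap and Cldn5 were the endothelial markers called higher, Plvap at 31.9 and 17.6 CPM in KO and 9.92 and 11.4 CPM in SmoM2 (log2 difference 1.21, SE 0.27, edgeR adjusted p = 0.00598), while Pecam1, Cdh5 and Kdr had too few counts to test. Plvap lost its call without KO replicate 1. The listed erythroid markers, mostly globin genes, summed to 45.8 and 14.2 CPM in KO against 8.08 and 3.005 CPM in SmoM2, and 3 of 4 tested were called higher. That count was 0 without KO replicate 1 or SmoM2 replicate 2, and Hba-a1 and Hba-a2 are near-identical copies with identical counts in the table. Ptpro was the podocyte marker called lower of 7 tested, at 1.77 and 1.52 CPM in KO and 14.7 and 13.5 CPM in SmoM2 (log2 difference -3.09, SE 0.54, edgeR adjusted p = 0.00180), with Nphs1 under the count needed for a test. Neither of the 2 tested proximal tubule markers was called. Whether these markers take part in the differences of the gene lists was not tested.

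Of 20 tested genes induced by tissue dissociation, 7 were higher and 2 lower, and the list summed to 6044 and 8084 CPM in the KO and 4432 and 6444 CPM in the SmoM2 libraries, ranges that overlap. Egr3 was at 28.8 and 62.7 CPM in KO and 8.998 and 9.13 CPM in SmoM2 (log2 difference 2.33, SE 0.33, edgeR adjusted p = 0.000501), and Junb at 406 and 514 CPM in KO and 184 and 242 CPM in SmoM2 (log2 difference 1.11, SE 0.17, edgeR adjusted p = 0.000916). Fos, Jun and Egr1 did not pass. With the mean level of this list as a covariate, 3457 genes were called in place of 4372, and the early nephron list had 6 genes higher, the Notch list 7, the replication list 5 and the mitosis list 5. Of the genes named above, Wnt4, Ccnd1, Papss2, Sufu, Kif7, Krt19, Hk2, Iars, Hoxa9, Tet1, Mycn, Igf2bp1, Grb10, Actb, Ptma, Spock2, Sparc and Lum lost their calls with that covariate. Dissociation genes called lower numbered 0 without KO replicate 1, KO replicate 2 or SmoM2 replicate 2.

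The remaining groups were placed by the end they were nearer to. Among the 1529 genes called with at least a 2-fold difference, the mean of the libraries labelled Het was nearer to KO than to SmoM2 on the log2 scale for 1185 (77.5%), and that of WT was nearer to SmoM2 for 1313 (85.9%). Both held for 1007 genes (65.9%). Being nearer to an end does not place a group between the ends, as Gfra2 in the libraries labelled Het, at 75.1 and 90.5 CPM, lay above KO and Tril, at 2327 and 2143 CPM, did too. Of the 24 leading genes, Het was nearer to KO for 21 and WT nearer to SmoM2 for 18. Among the exceptions, Emx2, Cldn5 and Lhx1 were high in KO alone, and Hhip, Foxf1 and Kcnj15 were high in SmoM2 alone. The Het-labelled libraries had a Smo level near that of KO, as given above, so their place does not measure the effect of 1 allele. They also differed from the KO libraries in sex.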

How the data were processed

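RNA of FACS-isolated Six2GFPcre nephron progenitors was sequenced after poly(A) selection with a kit that does not mark strand, per the labels' protocols. Reads were aligned with STAR and counted per gene with featureCounts (Subread) on mm10, per the submitters' processing notes, with versions not given in the sources used here. The deposited table holds raw counts, RPKM values that the authors computed from them, and gene lengths in bases, per the file headers. RPKM served only to derive the library totals behind it, of which the listed counts were 81.1% to 83.3%.

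All tests used the deposited counts. Genes that passed filterByExpr were fitted in edgeR 4.0.16 (R 4.3.3) with TMM scaling and a mean for each of the 4 groups over 8 libraries (4 residual degrees of freedom, biological coefficient of variation 13.5%), and the KO minus SmoM2 contrast was tested with the two-sided quasi-likelihood test and Benjamini-Hochberg adjustment at 0.05. CPM were TMM-scaled. With 2 libraries against 2, an exact permutation test of 1 gene cannot go below p = 0.333, so none was used. A count of 0 was given a floor of 3 counts, 0.664 CPM in KO and 0.347 CPM in SmoM2. Ratios of genes with 1 count in a group have exact 95% intervals for counting error only. Named genes are Smo, the 12 genes in each direction with the largest called log2 difference (average log2 CPM of at least 1, groups not overlapping), the 10 in each direction with the largest CPM difference, and members of gene lists. Genes and lists were chosen with earlier results of these data known, so no list was tested. Of the 18 alternatives, DESeq2 1.42.0 gave 1. Positions come from GENCODE (GRCm38) and promoters from RefSeq (GRCm38.p6). Replicate numbers were not taken as pairs, since deviations of same-numbered KO and SmoM2 libraries correlated at 0.0997 across genes and those of KO and Het at -0.061, although WT and SmoM2 gave 0.391. Some members of the lists are counted but not reported here by name.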

Additional observations from a re-analysis of the deposited data

How the results depend on the processing

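Leaving out 1 library at a time gave 2423 to 4440 called genes, 1103 to 2246 higher and 1238 to 2403 lower in KO, and at 2-fold or more 1107 to 1564, of which 555 to 790 were higher and 552 to 825 lower. The lowest totals came without KO replicate 1 and without either SmoM2 library, and the cause was not tested. The 24 leading genes kept direction and call in each of the 18 alternatives that tested them (15 of them in the one with a minimum of 50 average counts). That minimum left 977 genes called at 2-fold or more, 457 of them higher, because fewer genes were tested. DESeq2 called 3772 genes and a fit of the 4 compared libraries alone 4016. With the replicate number as a replicate block, 4612 genes were called, 4323 of them shared with the fit without it, and 3 of 1217 listed or named genes lost their calls. With the length trend removed, 136 of these 1217 genes lost their calls and the log2 difference of 2 called genes turned, to 0.0693 for Tet1 and -0.0123 for the splicing factor Snrpg, and 5 of 37 list medians changed sign. The depth of the KO libraries limited what could be read of genes under 0.664 CPM.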
